A study of Saccharomyces cerevisiae with 32 samples.

Results

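The first transcripts that moved when galactose-grown budding yeast met a fermentable hexose were sought in 4 of the 32 libraries of the study. Wild-type cells (WT, strain DBY12000) taken 3 min after glucose or after fructose had been added were compared with the same 2 WT cultures at 0 min, still in galactose. The 2 sugars were the 2 members of a side, so the comparison was 2 libraries against 2, and the members were taken by strain, time and sugar as the labels give them. All 4 cultures of the study, 1 for each strain and sugar, were log-phase cultures in 2% galactose (yeast nitrogen base). After a 0 min sample either hexose was added, also to 2%, and samples followed at 3, 5, 10, 15, 30, 60 and 120 min. The second strain is a mutant of TPS1, the trehalose-6-phosphate synthase gene (tps1, DBY12383), and its libraries at 3 and 0 min served for a comparison of the strains. TPS1 was at most 0.352 FPKM in the tps1 libraries at 3 and 0 min, against 241.9 and 261.7 FPKM at 3 min and 325.7 and 278.5 FPKM at 0 min in WT. WT was 1 strain with 1 culture per sugar.

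Yeast grown on galactose holds glucose-repressed genes partly on. Adding glucose or fructose acts through several known routes: the plasma membrane sensors Snf3 and Rgt2 release the corepressors Mth1 and Std1 from hexose transporter promoters, loss of Snf1 kinase activity lets the repressor Mig1 act on genes of alternative carbon sources, and cyclic AMP with protein kinase A drives growth genes and turns down stress and reserve carbohydrate genes. Uptake and phosphorylation of hexose also pull phosphate and redox equivalents into upper glycolysis, where glycerol synthesis is a known outlet.

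Levels were FPKM, read fragments scaled to transcript length and library size. Differences are of log2(FPKM + 1), which understates the change of genes at low levels, and they are relative within a library. Depth, estimated from the steps between low values, was 6.85 to 8.88 M fragments in the 4 libraries (3.99 to 9.86 M in all 32; M stands for mega), and 1 fragment over 1 kb stood for 0.0884 to 0.1249 FPKM. Between the glucose and the fructose course, the 5216 genes that averaged 10 FPKM or more had a median absolute difference of 0.128 (log2) at 3 min and 0.117 at 0 min. In RNA of whole cultures fewer cells that express a gene and less of its RNA per cell cannot be told apart.

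By 3 min, 104 of 6203 tested genes (1.68%) were called, 57 higher (0.919%) and 47 lower (0.758%). A gene was called at a limma adjusted p (Benjamini-Hochberg) under 0.05 and at least 2-fold. Of the called genes, 17 were higher and 15 lower by at least 4-fold, and every one of the 104 had both 3 min libraries on the same side of both 0 min libraries. That separation is common, since 3363 genes (54.2%) showed it. At any fold, 154 genes (2.48%) were higher and 128 (2.06%) lower, and 1095 genes had an unadjusted p under 0.05. The median gene changed by 0.01 (log2). The spread came from all 16 WT libraries, and p-values describe differences between a glucose and a fructose course at the same time, not between replicate cultures. With the 4 libraries alone, which leave 2 residual degrees of freedom, 28 genes were called, 26 of them among the 104, and FMP48, TYE7, GPP2, GPD1, ROX1, HAP4, ISF1 and TMA10 were among those 28. The other 78 of the 104 lost their call there, at limma adjusted p from 0.051 to 0.176. For some leading genes among them the value is given beside the result, but others carry only the p of the 16 libraries. These include SNF3 (0.0627), MTH1 (0.085), MAL31 (0.0799), MAL11 (0.0755), GLG1 (0.0514), GLC3 (0.077) and ATH1 (0.0611). GIS1 (0.0799), PDE2 (0.126), PFK27 (0.104), GUT2 (0.101) and MIG1 (0.176) lost the call too.

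**Figure D1:**
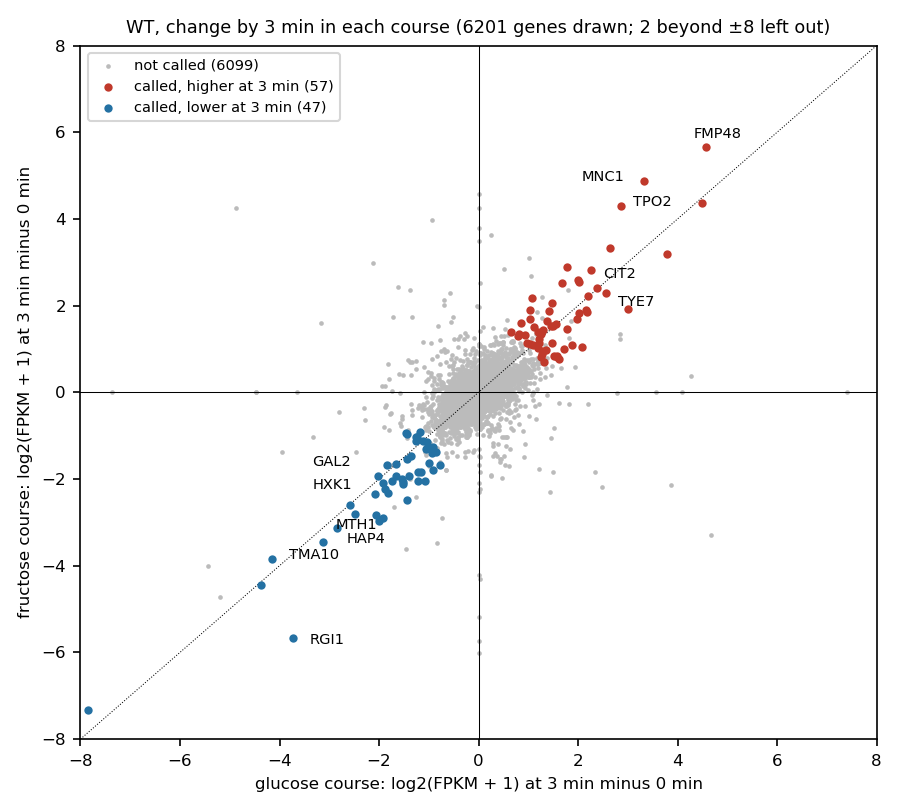
Change of each gene by 3 min in the WT glucose course (x axis) and the WT fructose course (y axis), as log2(FPKM + 1) at 3 min minus 0 min; red and blue points are the 57 higher and 47 lower calls, grey points the other genes, and the dotted line marks equal change. The called genes lie in the upper right and lower left corners, and 2 genes beyond 8 on an axis are left out of the 6203.

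Among the genes that rose, the highest difference of a gene with reads in all 4 libraries was that of FMP48 (YGR052W, chrVII:593596-594705, sacCer3), which encodes a putative protein kinase found in mitochondria. FMP48 had 191.2 FPKM 3 min after glucose and 371.5 FPKM 3 min after fructose, against 7.05 and 6.3 FPKM at 0 min in the same courses. Both 3 min libraries were far above both 0 min libraries, and fructose was the higher of the pair; the difference was 5.12 ± 0.28 (log2, SE; limma adjusted p = 5.23e-06). MNC1, a small cysteine-rich membrane protein, had 117.2 and 190.2 FPKM at 3 min against 10.8 and 5.52 FPKM at 0 min (4.1 ± 0.45, limma adjusted p = 0.000691; 0.0514 with the 4 libraries alone). TPO2, a polyamine transporter of the plasma membrane, had 112.8 and 296.7 FPKM against 14.6 and 14.1 FPKM (3.58 ± 0.36, adjusted p = 0.000394; 0.0817 with the 4 libraries alone). The groups did not overlap for any of the 3 genes.

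TPO2 and FMP48 were the 2 called members of a list of 12 plasma membrane transporters, proton pump proteins and FMP48 that had been put together with earlier results of these data known. The list median was 0.76 (log2), beside 0.01 over all tested genes, but it was 0.26 in the glucose course and 1.08 in the fructose course. No member was called lower, and the lowest difference was -0.08. TPO1, also a polyamine transporter, differed by 0.92 and TPO3 by 0.73, both past the adjusted p but under 2-fold, while the proton pump gene PMA1 differed by 0.23 and did not pass. YRO2, a membrane protein of the opsin family, had 113.6 and 348.5 FPKM at 3 min against 54.0 and 53.7 FPKM at 0 min. The fructose library was far above the glucose library, and YRO2 was not called (1.87 ± 0.57, limma adjusted p = 0.11); with the course as a replicate block it was (adjusted p = 0.00709). TPO2 and TPO3 are close paralogs, and the authors' handling of reads that match both is not known here, so their values are uncertain.

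A further set of early transcripts belonged to glycerol metabolism. GPP1, a glycerol-3-phosphate phosphatase that completes glycerol synthesis, had 1994.1 FPKM in glucose and 2607.8 FPKM in fructose at 3 min, against 433.6 and 564.7 FPKM at 0 min (2.2 ± 0.18, limma adjusted p = 0.000108; 0.051 with the 4 libraries alone). Its isozyme GPP2 had 652.0 and 652.6 FPKM against 165.2 and 200.4 FPKM (1.84 ± 0.16). GPD1, the glycerol-3-phosphate dehydrogenase of the step before, had 1221.5 and 1416.3 FPKM against 447.8 and 492.1 FPKM (1.48 ± 0.16). In all 3 genes each 3 min value was more than 2 times each 0 min value of its own course. GPD2, the second dehydrogenase, was higher by 0.79 (limma adjusted p = 0.000471), short of 2-fold. Genes of glycerol use were lower. GUT2, the mitochondrial glycerol-3-phosphate dehydrogenase, had 74.8 and 53.3 FPKM against 142.3 and 129.4 FPKM (-1.09 ± 0.24, limma adjusted p = 0.0292), and GUT1, glycerol kinase, differed by -0.55 (adjusted p = 0.0489), under 2-fold. The glycerol transporter genes STL1 (-0.33) and FPS1 (-0.2) did not pass. These 8 glycerol genes were chosen after their values had been seen, and reads of the near-identical GPP1 and GPP2 may have been split between them.

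CIT2, the peroxisomal citrate synthase of the glyoxylate cycle, had 708.2 and 1137.0 FPKM at 3 min against 146.8 and 159.6 FPKM at 0 min (2.54 ± 0.23, limma adjusted p = 0.000165; 0.0517 with the 4 libraries alone). It was the only called member among 15 genes of gluconeogenesis and the glyoxylate cycle, whose median was -0.14. FBP1 and PCK1, the enzymes particular to gluconeogenesis, differed by 0.03 and 0.02, and both values turned below 0 under equal FPKM sums. DLD3, a cytosolic enzyme that converts 2-hydroxyglutarate, was named after its value had been seen. It had 583.7 and 919.5 FPKM against 219.5 and 250.5 FPKM (1.64 ± 0.22). In CIT2 and DLD3 the fructose library was the higher of the pair at 3 min. SCM4, a mitochondrial outer membrane protein, had 458.2 and 658.5 FPKM against 87.5 and 123.3 FPKM (2.39 ± 0.19). With the 4 libraries alone DLD3 (limma adjusted p = 0.0894) and SCM4 (0.0627) lost their calls.

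Several regulators rose. TYE7, a helix-loop-helix activator of glycolytic genes, had 164.4 and 150.4 FPKM at 3 min against 27.1 and 30.0 FPKM at 0 min, with little difference between the sugars (2.42 ± 0.14, limma adjusted p = 7.18e-06). ROX1, the repressor of hypoxic genes, had 343.9 and 337.6 FPKM against 83.8 and 95.0 FPKM (1.92 ± 0.25). RGS2, which turns off signalling by the glucose-sensing G protein, had 43.4 and 40.0 FPKM against 8.91 and 10.0 FPKM (2.03 ± 0.25). For these 3 regulators the glucose and fructose libraries at 3 min lay closer to each other than to any 0 min library.

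In the list of 18 genes of RAS and protein kinase A signalling, 1 was called higher, 1 lower, and the median was -0.08. The gene called higher was PDE2, the high-affinity phosphodiesterase that breaks down cyclic AMP, with 123.2 and 67.6 FPKM against 32.7 and 31.1 FPKM (1.49 ± 0.25, limma adjusted p = 0.0085); without either 0 min library it lost the call (adjusted p up to 0.0661). The gene called lower was GIS1, a factor for growth past glucose exhaustion, with 17.5 and 13.8 FPKM against 34.4 and 38.0 FPKM (-1.17 ± 0.17, adjusted p = 0.003). SOK2, a transcription factor downstream of protein kinase A, was higher by 1.3. The calmodulin-dependent kinase gene CMK2 (1.77) and the calcineurin regulator gene RCN2 (1.03) were higher too. SOK2, CMK2 and RCN2 were named after their values had been seen. With the 4 libraries alone SOK2 (limma adjusted p = 0.085), CMK2 (0.073) and RCN2 (0.132) lost their calls.

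In glycolysis and fermentation, 1 of 24 genes was higher and 1 lower, with a median of 0.16. PFK27, an enzyme that makes the phosphofructokinase activator fructose-2,6-bisphosphate, had 92.7 and 75.0 FPKM at 3 min against 30.2 and 42.4 FPKM at 0 min (1.2 ± 0.16, limma adjusted p = 0.00231) and lost the call without the glucose-course library at 0 min. HXK1, the hexokinase isozyme of non-repressed cells, had 365.1 and 253.3 FPKM against 1294.6 and 1269.0 FPKM (-2.07 ± 0.4, adjusted p = 0.016). HXK1 kept its call only when the glucose library at 3 min was left out (adjusted p up to 0.141 without another library, and 0.0514 with the 4 libraries alone). Its sister HXK2, the main hexokinase on glucose, differed by -0.81 (adjusted p = 0.0152), under 2-fold, and the pyruvate decarboxylase gene PDC1 by 0.36 (adjusted p = 0.0947).

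**Figure D2:**
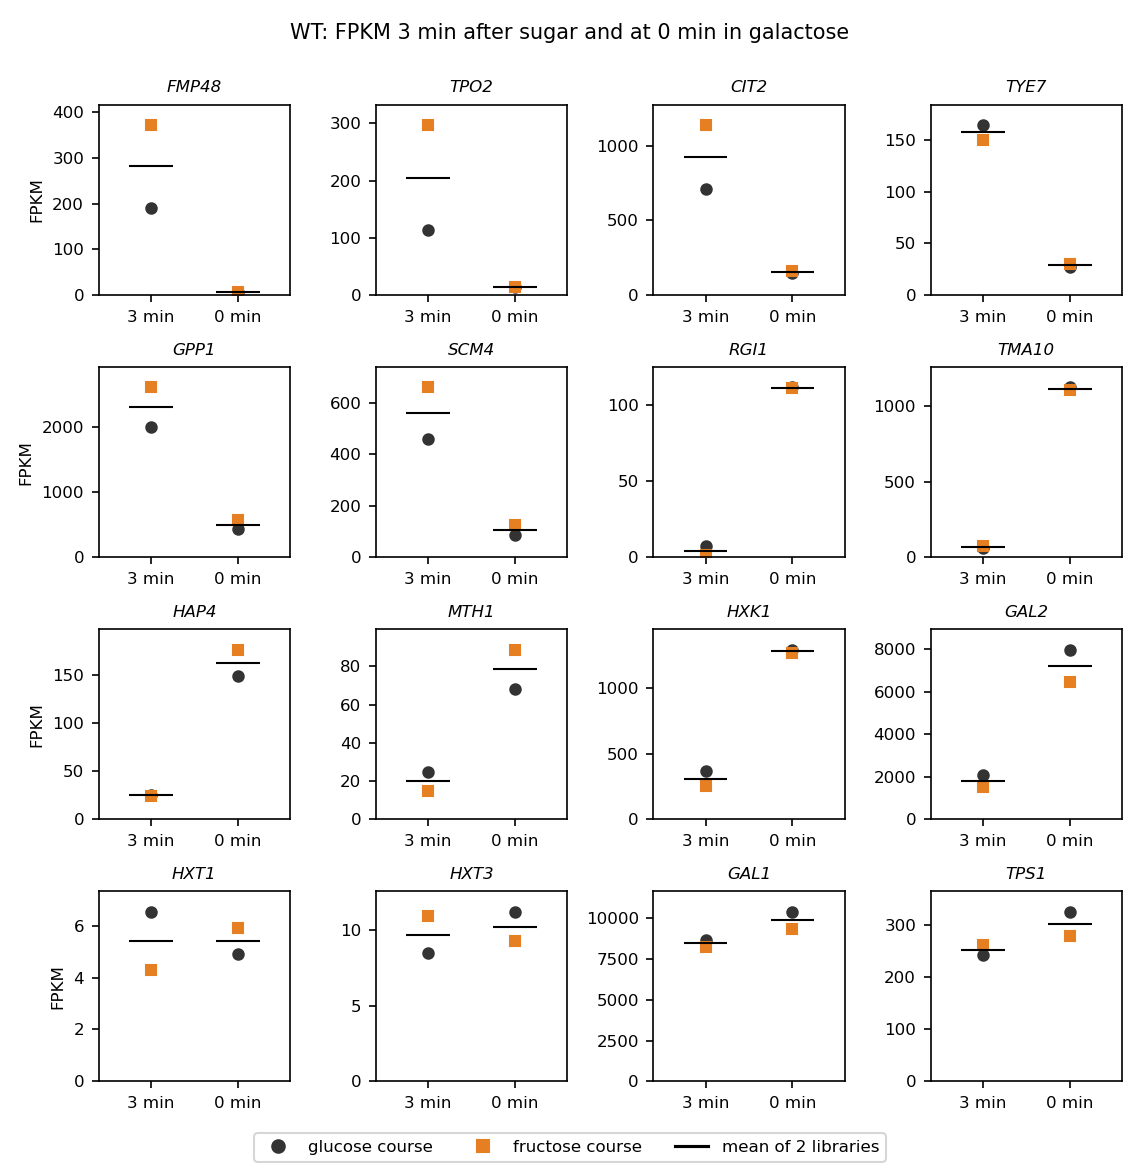
FPKM of 16 genes in the 4 WT libraries, 3 min left and 0 min right in each panel; circles are the glucose course, squares the fructose course and lines the mean of the 2 libraries, on axes that start at 0. FMP48 to SCM4 are higher at 3 min, RGI1 to GAL2 lower, and HXT1, HXT3, GAL1 and TPS1 were not called.

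HAP4, the limiting subunit of the activator of respiratory genes, fell. It had 25.8 and 24.3 FPKM at 3 min against 149.8 and 176.9 FPKM at 0 min (-2.65 ± 0.13, limma adjusted p = 1.88e-06), and the call held without any 1 of the 4 libraries. HAP4 was the only called member of 13 genes of the SNF1 kinase and of derepression factors (median -0.14); CAT8, an activator of gluconeogenic genes, differed by -0.7 (adjusted p = 0.0761) and SNF1 itself by -0.25. Of 34 respiratory chain and ATP synthase genes, many of them known Hap4 targets, 0 passed the limma adjusted p at any fold and 3 had an unadjusted p under 0.05 (median 0.04; -0.03 under equal FPKM sums). Of 16 tricarboxylic acid cycle genes 0 were called and 5 had an unadjusted p under 0.05. Over all tested genes 1095 of 6203 had such a p. MDH1, malate dehydrogenase, passed the adjusted p (-0.9, under 2-fold). ISF1, a serine-rich protein linked to respiratory growth, had 12.3 and 10.2 FPKM against 55.2 and 55.7 FPKM (-2.21 ± 0.13). MPC3, a subunit of the mitochondrial pyruvate carrier, had 79.7 and 83.9 FPKM against 253.8 and 268.0 FPKM (-1.66 ± 0.29).

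Of 16 genes of glucose sensing and repression, 3 were lower, none was higher at 2-fold, and the median was -0.23. MTH1, a corepressor of hexose transporter genes, had 24.6 and 15.0 FPKM at 3 min against 68.4 and 88.8 FPKM at 0 min (-1.96 ± 0.32, limma adjusted p = 0.00684); it lost the call without either fructose-course library (adjusted p up to 0.0672). SNF3, the sensor of low glucose, had 4.82 and 3.3 FPKM against 15.7 and 17.7 FPKM (-1.82 ± 0.21, adjusted p = 0.000892). MIG1, the glucose repressor, had 30.3 and 15.3 FPKM against 52.3 and 50.9 FPKM (-1.22 ± 0.3, adjusted p = 0.0468) and kept its call only without the glucose library at 3 min; equal FPKM sums also ended it (adjusted p = 0.0646). RGT2, the sensor of high glucose, differed by 0.69 and the repressor gene NRG1 by 0.86, both past the adjusted p and under 2-fold. STD1, the corepressor paralogous to MTH1, had 6.44 and 5.9 FPKM against 3.75 and 2.57 FPKM and did not pass (0.8, adjusted p = 0.132). TDA1, a kinase that acts on hexokinase 2, was lower with 5.24 and 4.7 FPKM against 22.2 and 26.0 FPKM (-2.07 ± 0.2).

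The hexose transporter genes known to be switched on by glucose were not called. HXT1, the low-affinity transporter, had 6.53 and 4.28 FPKM at 3 min against 4.89 and 5.92 FPKM at 0 min, HXT3 had 8.48 and 10.9 FPKM against 11.2 and 9.28 FPKM, and HXT4 had 3.4 and 5.03 FPKM against 4.49 and 5.46 FPKM. The groups overlapped in each, and the differences were -0.02 ± 0.48, -0.08 ± 0.32 and -0.21 ± 0.48. Differences of this size were not detectable with 2 libraries a side. Of 16 listed transporters 11 were tested, the other 5 having a mean under 1 FPKM, and 2 were lower (median -0.26). These were the high-affinity transporter gene HXT7, with 8.71 and 10.5 FPKM against 33.8 and 35.5 FPKM (-1.75 ± 0.36, limma adjusted p = 0.0215), and HXT13, with 3.06 and 2.45 FPKM against 8.35 and 13.3 FPKM (-1.63 ± 0.34, adjusted p = 0.0238). Both calls were lost without any 1 of the 4 libraries (adjusted p up to 0.168), and HXT7 has the near-identical copy HXT6.

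Of 9 genes of galactose use only GAL2, the galactose permease, was called. GAL2 had 2089.8 FPKM in glucose and 1522.2 FPKM in fructose at 3 min, against 7978.6 and 6464.8 FPKM at 0 min (-2.01 ± 0.44, limma adjusted p = 0.029). The groups were well apart, but omission of any 1 of the 4 libraries ended the call (adjusted p up to 0.21), as did the use of the 4 libraries alone (0.0527). GAL1, galactokinase, had 8684.1 and 8207.0 FPKM against 10387.2 and 9337.5 FPKM (-0.22 ± 0.44), and GAL10, the epimerase gene, had 3511.5 and 3181.3 FPKM against 4784.1 and 4445.7 FPKM (-0.46 ± 0.38). The list median was -0.4. GAL1, GAL2 and GAL10, known to be induced by galactose, stood high at 0 min, when the labels place the cells in galactose.

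Disaccharide genes had the lowest list median, -0.83, with 3 of 9 genes lower and none higher. MAL31, a maltose permease, had 15.8 and 8.04 FPKM at 3 min against 69.3 and 63.1 FPKM at 0 min (-2.45 ± 0.28, limma adjusted p = 0.000819). MAL11, the permease for maltose and related glucosides, had 10.0 and 6.38 FPKM against 30.5 and 29.9 FPKM (-1.79 ± 0.18). MAL33, an activator gene next to MAL31 and transcribed from the other strand 701 bp away, had 33.2 and 21.6 FPKM against 67.5 and 68.8 FPKM (-1.31 ± 0.32, adjusted p = 0.0448; lost without any 1 library, adjusted p up to 0.286). SUC2, invertase, had 63.7 and 61.3 FPKM against 127.5 and 115.6 FPKM, a difference of -0.95 that passed the adjusted p (0.0132) but not 2-fold. Under equal FPKM sums it was called (-1.02). MAL genes have near-identical copies, so single MAL values are uncertain.

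Reserve carbohydrate genes fell in part. Of 10 glycogen genes 3 were lower and none higher (median -0.36). GLG1, a glycogenin that starts the glycogen chain, had 12.9 and 10.8 FPKM at 3 min against 34.6 and 31.3 FPKM at 0 min (-1.41 ± 0.17, limma adjusted p = 0.000937). GAC1, which brings a phosphatase to glycogen synthase, had 14.0 and 7.93 FPKM against 27.4 and 30.1 FPKM (-1.36 ± 0.26), and GLC3, the branching enzyme, had 31.9 and 27.8 FPKM against 77.7 and 62.0 FPKM (-1.19 ± 0.2). GAC1 kept its call only without the glucose library at 3 min (adjusted p up to 0.131), and GLC3 lost it without the fructose library at 3 min or the glucose-course library at 0 min (adjusted p up to 0.083). Of 8 trehalose genes only ATH1, acid trehalase, was lower, with 8.51 and 8.57 FPKM against 21.3 and 18.6 FPKM (-1.13 ± 0.13, adjusted p = 0.000892).

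In the list of 30 general stress genes, 3 were lower and the median was -0.13. RGI1, a protein induced in respiratory growth, had 7.53 and 1.21 FPKM at 3 min against 111.8 and 111.5 FPKM at 0 min (-4.7 ± 0.54, limma adjusted p = 0.000892; 0.0864 with the 4 libraries alone). TMA10, a ribosome-associated stress protein, had 62.1 and 76.4 FPKM against 1123.1 and 1107.4 FPKM (-4.0 ± 0.31, adjusted p = 6.23e-05). USV1, a zinc-finger regulator, fell by 1.16 on the log2 scale and lost the call without any 1 library (adjusted p up to 0.235) and with the replicate block (adjusted p = 0.0534). RGI2, the paralog of RGI1, was listed at 0 in both 3 min libraries and had 3.07 and 2.81 FPKM at 0 min. HSP12, among the most used markers of this programme, had 2737.1 and 3134.5 FPKM against 2670.1 and 2728.3 FPKM (0.12 ± 0.34), and 27 of the 30 genes were not called. Of 22 heat shock chaperone genes 0 were called, and 1 passed the limma adjusted p at any fold, as higher. An unadjusted p under 0.05 was found for 6 of the 22, beside 1095 of 6203 over all tested genes.

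The stress response element AGGGG, the known site of the factors Msn2 and Msn4, was searched on both strands in the 300 bases that start 400 bases before each start codon. It was present in 27 of 43 windows of genes that fell (62.8%), in 14 of 54 windows of genes that rose (25.9%) and in 1371 of 5726 windows of all tested genes (23.9%). The Mig1-type cores CCCCGG and CCCCAG were present in 11.6% and 11.6% of windows of genes that fell (5 of 43 each). They were in 3.7% and 0% of those that rose (2 and 0 of 54), and in 2.99% and 4.02% of all. For the motifs of ribosome biogenesis promoters, GATGAG was in 9.3% (fell, 4 of 43), 20.4% (rose, 11 of 54) and 17.9% (all). AAAAATTTT was in 2.33% (fell, 1 of 43), 7.41% (rose, 4 of 54) and 7.58% (all). These shares are descriptions; the occupancy of the sites was not measured. The far 200 bases of 6 windows, from 400 to 201 before the start codon, show how the element is placed in 4 genes that fell and in 2 that rose (sacCer3; capitals mark AGGGG or its complement CCCCT and, in HXK1, CCCCGG).
RGI1: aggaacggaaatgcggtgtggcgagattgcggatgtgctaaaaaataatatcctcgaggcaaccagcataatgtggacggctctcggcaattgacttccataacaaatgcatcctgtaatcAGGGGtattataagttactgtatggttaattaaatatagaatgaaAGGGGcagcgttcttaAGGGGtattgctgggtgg
TMA10: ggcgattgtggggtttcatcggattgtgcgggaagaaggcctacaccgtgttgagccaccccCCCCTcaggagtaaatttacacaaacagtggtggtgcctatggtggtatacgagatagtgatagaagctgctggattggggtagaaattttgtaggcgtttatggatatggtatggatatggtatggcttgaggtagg
GLC3: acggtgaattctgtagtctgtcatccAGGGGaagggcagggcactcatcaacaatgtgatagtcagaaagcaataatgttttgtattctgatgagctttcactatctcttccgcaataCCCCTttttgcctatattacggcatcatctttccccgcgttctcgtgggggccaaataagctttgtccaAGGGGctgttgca
HXK1: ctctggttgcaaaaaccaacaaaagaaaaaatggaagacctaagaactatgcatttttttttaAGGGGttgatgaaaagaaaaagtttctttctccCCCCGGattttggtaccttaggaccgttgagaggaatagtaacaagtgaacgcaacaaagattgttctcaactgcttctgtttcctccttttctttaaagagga
FMP48: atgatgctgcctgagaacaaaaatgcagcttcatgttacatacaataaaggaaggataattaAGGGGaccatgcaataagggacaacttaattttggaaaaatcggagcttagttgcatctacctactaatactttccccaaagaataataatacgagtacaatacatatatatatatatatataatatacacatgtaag
CIT2: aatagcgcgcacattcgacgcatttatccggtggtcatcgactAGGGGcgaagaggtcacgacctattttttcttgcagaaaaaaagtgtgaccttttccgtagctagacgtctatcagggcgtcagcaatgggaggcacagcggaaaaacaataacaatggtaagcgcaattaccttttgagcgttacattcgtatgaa
The windows are chrV:291666-291865 (plus strand) for RGI1, chrXII:783588-783787 (minus) for TMA10, chrV:132720-132919 (plus) for GLC3, chrVI:255250-255449 (minus) for HXK1, chrVII:593196-593395 (plus) for FMP48 and chrIII:122529-122728 (minus) for CIT2. RGI1 and GLC3 hold 3 elements each in these bases and the other 4 genes hold 1 each. All 6 windows are picked examples that hold the element, so they do not show how common it is in either direction. The shares over all windows do: 62.8% of genes that fell, 25.9% of those that rose and 23.9% of all.

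Some growth genes rose, most by less than 2-fold. Of 68 ribosome biogenesis genes 1 was called higher and none lower, but 9 were higher at an adjusted p under 0.05 at any fold. The list median was 0.44 (log2) beside 0.01 over all genes (0.58 in the glucose course and 0.25 in the fructose course). In this list 42 of 68 genes had an unadjusted limma p under 0.05, beside 1095 of 6203 over all tested genes. The called gene was DBP2, an RNA helicase, with 252.9 and 165.2 FPKM at 3 min against 84.0 and 92.7 FPKM at 0 min (1.2 ± 0.25, limma adjusted p = 0.0238); it kept its call only without the fructose library at 3 min (adjusted p up to 0.18). NSR1, a nucleolar protein of pre-rRNA processing, had 406.8 and 253.6 FPKM against 157.7 and 172.6 FPKM (0.96 ± 0.23, adjusted p = 0.0468), just under 2-fold. The limma test called 0 of 22 RNA polymerase I and III genes (median 0.22), 0 of 139 cytosolic ribosomal protein genes (median 0.12), 0 of 69 mitochondrial ribosomal protein genes (median -0.07) and 0 of 18 purine synthesis and salvage genes (median 0.12). At an unadjusted p under 0.05 there were 5, 4, 0 and 3 genes in those lists. RRN11, a core factor of RNA polymerase I outside those lists, was higher with 26.4 and 14.4 FPKM against 5.5 and 6.5 FPKM. TOD6, a repressor of ribosome biogenesis genes, was higher too with 25.2 and 23.5 FPKM against 9.74 and 11.6 FPKM. With the 4 libraries alone RRN11 (limma adjusted p = 0.123) and TOD6 (0.073) lost their calls. Of 12 cyclin genes CLB1 alone was higher (1.06 ± 0.16; lost without the fructose-course library at 0 min, adjusted p = 0.0537, and at 0.99 just under 2-fold with equal FPKM sums), and the G1 cyclin gene CLN3 differed by 0.00 ± 0.25.

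**Figure D3:**
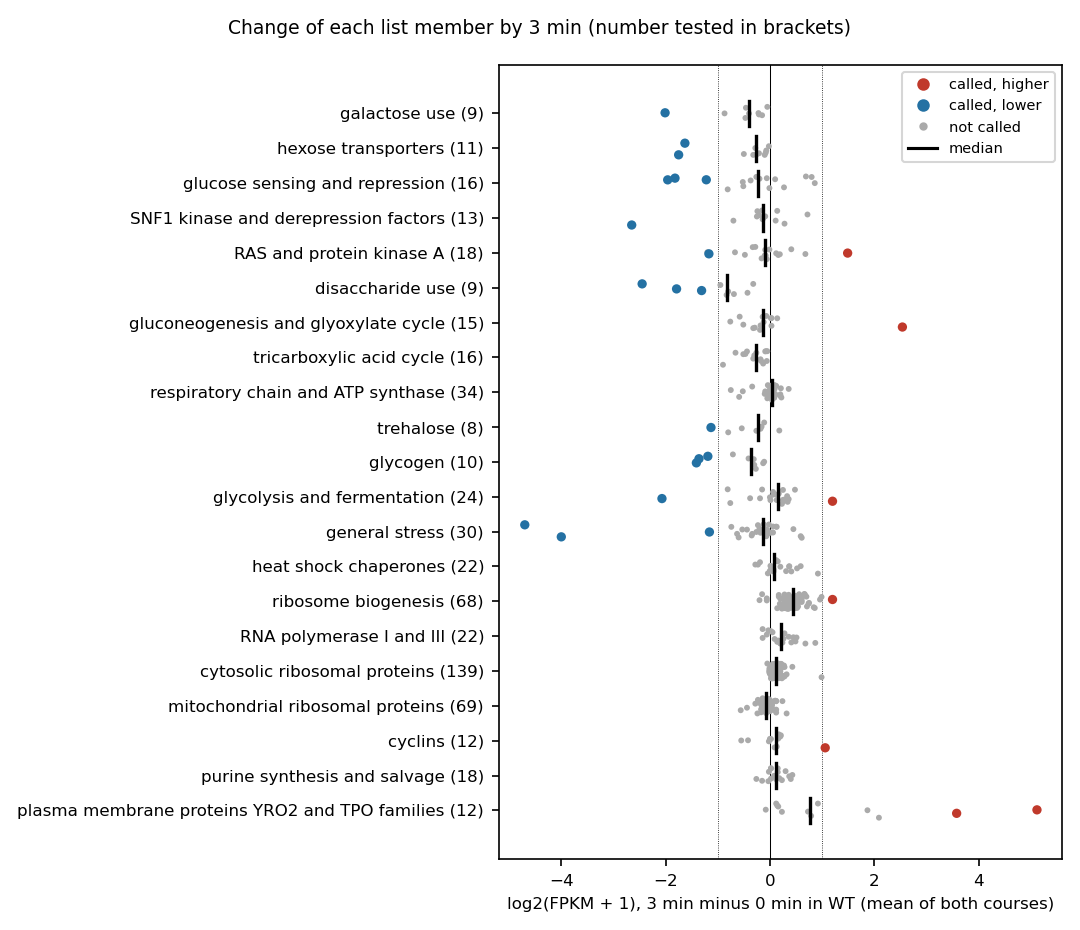
Change by 3 min of each tested member of 21 gene lists, as log2(FPKM + 1) at 3 min minus 0 min in WT (mean of both courses); red and blue points were called higher or lower, grey points were not, black bars are list medians and dotted lines mark 2-fold. Most lists hold 0 to 3 called genes, the disaccharide median is the lowest (-0.83) and that of the plasma membrane list the highest over both courses (0.76; 0.26 in glucose and 1.08 in fructose); 1 member left of -5 is not drawn.

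Glucose and fructose gave the same direction in all 104 called genes, which the call itself favours. With 1 library per sugar at 3 min the sugars were set side by side without a test. Genes that rose had a median difference of 1.49 (log2) in the glucose course and 1.52 in the fructose course, and 33 of the 57 rose more in fructose. Genes that fell had a median of -1.46 in glucose and -1.94 in fructose, and 37 of the 47 fell more in fructose. Regardless of the test, 110 genes changed at least 2-fold the same way in both courses (55 higher, 55 lower), 80 of them called. Another 16 changed at least 2-fold in opposite ways, of which 13 were under 300 bp or unmatched to the annotation. Among all 6203 tested genes 681 were of that kind. TPO2 changed by 2.86 in the glucose course and 4.3 in the fructose course, and MNC1 by 3.32 and 4.88. YGR079W, an uncharacterised gene, changed by 3.0 in glucose and 1.91 in fructose, and SKS1, a kinase gene of growth on low glucose, also changed more in glucose (1.62) than in fructose (0.77).

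Between 5 and 3 min of the same cultures 149 genes (2.4%) were called in the direct comparison, 63 higher at 5 min (1.02%) and 86 lower (1.39%). With a pseudocount of 5 the count was 93. Under equal FPKM sums, which moved the median gene to -0.12 against 0.03, the split was 31 higher and 121 lower. Some early genes had already turned. CMK2 had 33.2 and 49.2 FPKM at 5 min, against 73.0 and 105.8 FPKM at 3 min (-1.1 ± 0.21, limma adjusted p = 0.00792), and at 10 min it was at 16.7 and 19.2 FPKM, below its 0 min values of 25.6 and 24.5 FPKM. YJL107C, an uncharacterised gene, fell by 1.02 on the log2 scale at 5 min, a call lost without either fructose library. DIA1, a gene of invasive growth, had 48.9 and 67.3 FPKM at 5 min against 81.3 and 137.9 FPKM at 3 min (-0.87, adjusted p = 0.0305, under 2-fold). FMP48 and CIT2 did not differ past the threshold between 5 and 3 min (0.2 and 0.15). For FMP48 this mean joins opposite moves in the courses. It rose from 191.2 to 354.1 FPKM in glucose and fell from 371.5 to 266.5 FPKM in fructose, so glucose was the higher at 5 min. By 30 min FMP48 was at 19.9 FPKM in glucose and 23.6 FPKM in fructose.

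Other early genes went on in the same direction. GPP1 had 4931.3 and 4401.9 FPKM at 5 min against 1994.1 and 2607.8 FPKM at 3 min (1.03 ± 0.18, limma adjusted p = 0.00669). TPO2 was higher again by 1.42 ± 0.36 (adjusted p = 0.0282), a call kept only without the fructose library at 3 min. Among the genes that fell, TMA10 differed by -2.4 between 5 and 3 min, HXK1 by -2.71, MTH1 by -1.92 and GLG1 by -1.58, and each of these 4 calls held without any 1 library. Of the 10 glycogen genes 5 were lower at 5 than at 3 min (median -1.06), and of the 68 ribosome biogenesis genes 10 were higher (median 0.82). GAL2 had 396.0 and 451.6 FPKM at 5 min (-2.07, adjusted p = 0.0138; lost without the glucose library of either time), while GAL1 had 6161.1 and 6253.9 FPKM (-0.44, adjusted p = 0.59).

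Other genes that had not been called by 3 min were called between 5 and 3 min. HXT1 had 43.3 FPKM in glucose and 15.8 FPKM in fructose at 5 min against 6.53 and 4.28 FPKM at 3 min (2.11 ± 0.48, limma adjusted p = 0.0183); the call was kept only without the fructose library at 5 min (adjusted p up to 0.139). HXT1 then reached 445.2 and 310.9 FPKM at 15 min. MUP1, the high-affinity methionine permease, had 483.9 and 538.4 FPKM at 5 min against 54.2 and 68.6 FPKM at 3 min (3.04 ± 0.27, adjusted p = 0.000401), and STR3, an enzyme of methionine synthesis, had 167.9 and 205.6 FPKM against 27.9 and 52.7 FPKM (2.25 ± 0.25). MUP1 and STR3 had differed by 0.2 and 0.42 between 3 and 0 min, not past the threshold. TSL1, a subunit of the trehalose synthase complex, had 8.57 and 10.8 FPKM at 5 min against 77.6 and 77.9 FPKM at 3 min (-2.89 ± 0.35, adjusted p = 0.00136).

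**Figure D4:**
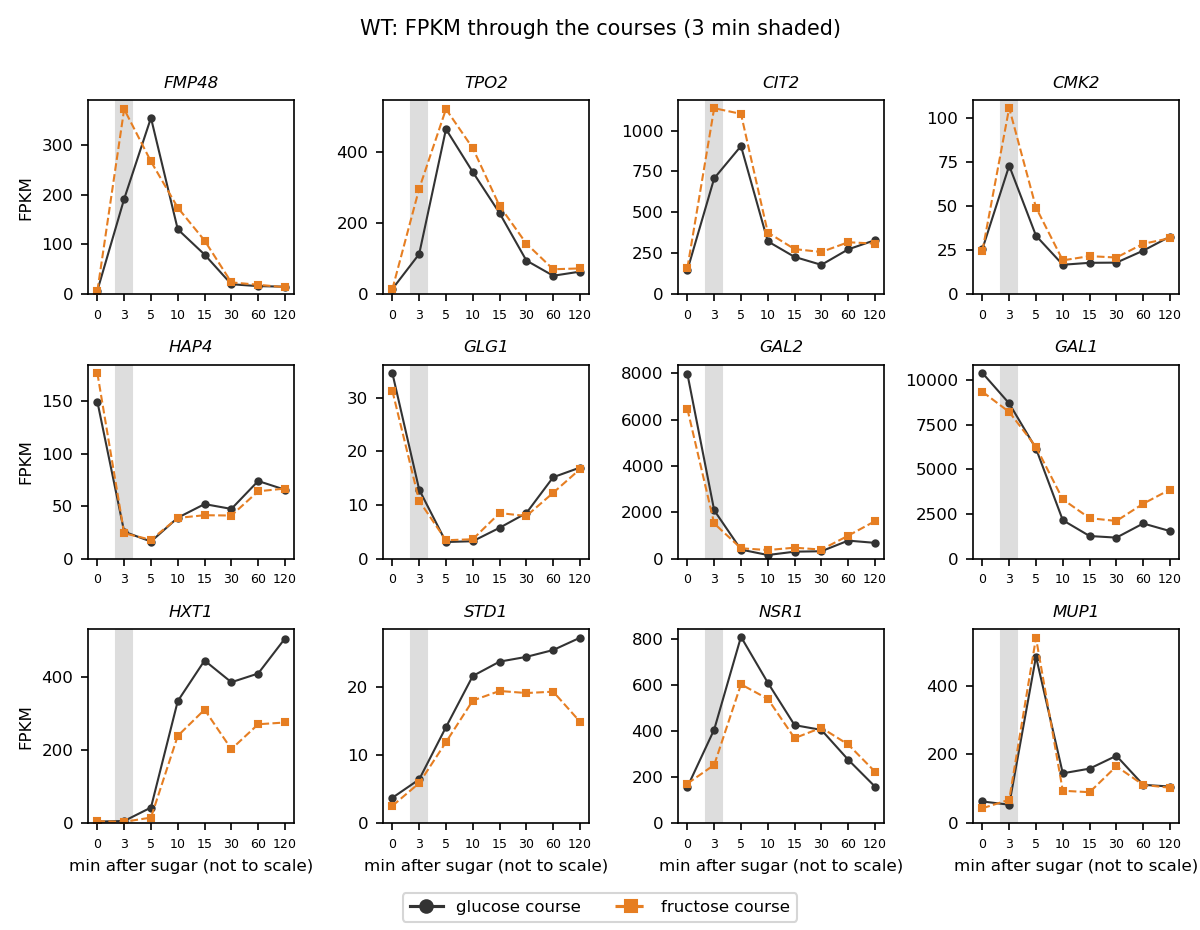
FPKM of 12 genes in WT at the 8 times of the glucose course (circles, solid) and the fructose course (squares, dashed); the x axis lists min after sugar and is not to scale, the grey band marks 3 min, and each point is 1 library. FMP48, TPO2, CIT2 and CMK2 are high by 3 to 5 min and lower by 30 min, HAP4, GLG1 and GAL2 are low by 3 min, GAL1 declines later, and HXT1 and MUP1 are near their 0 min level at 3 min.

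The change by 3 min was also set against that of tps1 cells in a test of the difference itself. The difference of the changes, tps1 minus WT, was called for 72 genes (1.16%), 13 higher (0.21%) and 59 lower (0.951%), for 116 genes with the course as a replicate block, and for 29 to 53 genes when 1 of the 8 libraries was left out. FMP48 had 4.18 and 4.33 FPKM at 3 min and 5.22 and 5.27 FPKM at 0 min in tps1, and its strain difference was -5.37 ± 0.71 (limma adjusted p = 0.000237). GPP1 had 372.6 and 322.0 FPKM at 3 min and 455.9 and 305.2 FPKM at 0 min in tps1 (-2.31 ± 0.38, adjusted p = 0.00211). CIT2, TYE7, ROX1, GPD1, DLD3 and TPO2 also had called strain differences, from -3.82 for TPO2 to -1.36 for GPD1. Each of these genes had risen in WT.

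Among genes that fell in WT, TMA10 had 867.0 and 880.0 FPKM at 3 min and 1138.9 and 1073.6 FPKM at 0 min in tps1, a strain difference of 3.66 ± 0.48 (limma adjusted p = 0.000237). RGI1 had 93.5 and 83.3 FPKM at 3 min and 108.1 and 96.0 FPKM at 0 min in tps1 (4.49 ± 0.65, adjusted p = 0.000608). HAP4 fell in part, to 86.9 and 80.7 FPKM at 3 min, against 187.2 and 154.4 FPKM at 0 min in tps1, and its strain difference of 1.64 ± 0.39 (adjusted p = 0.0405) lost the call without any 1 of the 8 libraries and under equal FPKM sums (adjusted p = 0.245). For HXK1 (2.17, adjusted p = 0.0652), GAL2 (2.16, adjusted p = 0.0542) and MTH1 (1.36, adjusted p = 0.174) the strain difference was not called. MIG1 differed by -0.2 ± 0.65 between the strains and changed by -1.42 in tps1 and -1.22 in WT.

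**Figure D5:**
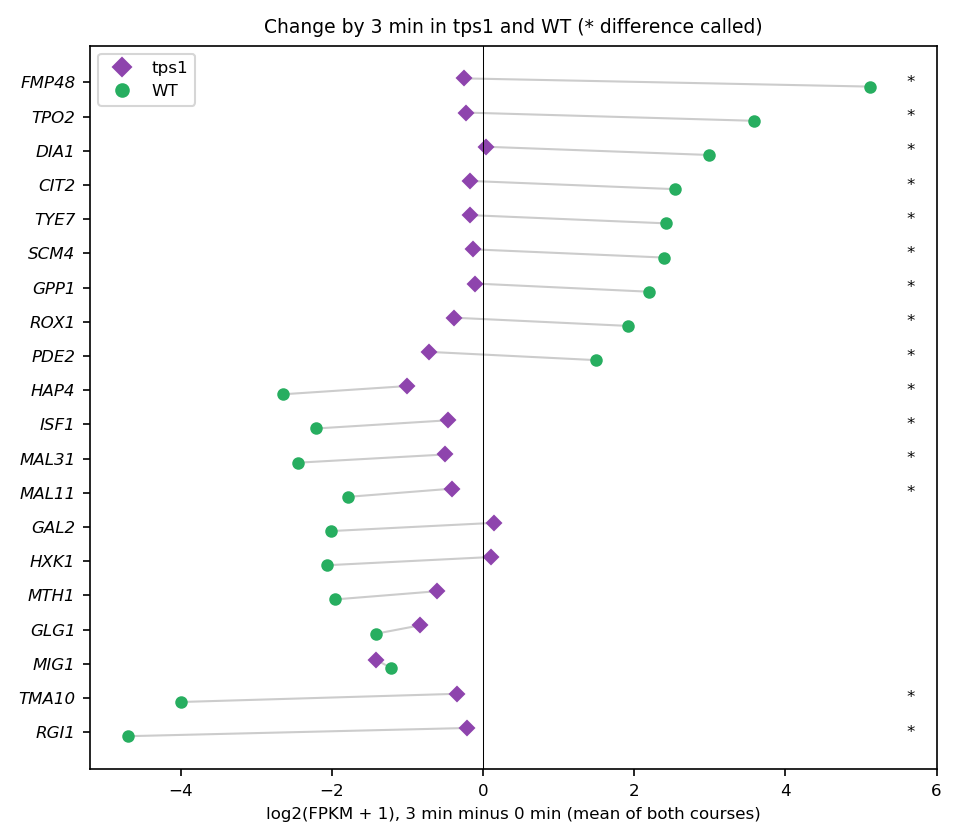
Change by 3 min of 20 genes in tps1 (purple diamonds) and WT (green circles), as log2(FPKM + 1) at 3 min minus 0 min, mean of both courses; an asterisk marks a called difference between the strains. The 9 upper genes rise in WT and lie between -0.71 and 0.04 in tps1.

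Short and unmatched entries carried some of the most extreme values and are uncertain. Of the 104 called genes 13 were under 300 bp or unmatched, 7 of them unmatched (3 higher, 4 lower). Among all 6203 tested genes 681 were of that kind, a share close to that among the calls. YHR032C-A was listed at 0 in both 3 min libraries and had 230.3 and 160.9 FPKM at 0 min, and YOR293C-A had 21.6 and 19.6 FPKM at 3 min and was listed at 0 in both 0 min libraries. YER067C-A had 10.1 and 8.56 FPKM against 229.6 and 208.2 FPKM, a call lost without any 1 library (adjusted p up to 0.245) and under equal FPKM sums (adjusted p = 0.0546). The ribosomal protein gene RPL41B, of 78 coding bases, had 134780 FPKM in the fructose-course library at 0 min and was listed at 0 in the other 3. YDL023C had 1213.6 and 1370.3 FPKM against 430.1 and 469.1 FPKM, close to the values of GPD1 given above. Other unmatched calls had IDs next to a called gene and moved the same way. YER067C-A (-4.41) and YER066C-A (-3.29) fell with RGI1 (YER067W, -4.7), and YOL150C (1.31) rose with GRE2 (YOL151W, 1.08). Whether any of these entries share reads was not tested, so they may not be separate calls. Among 5709 pairs of neighbouring tested genes 7 pairs had both genes called, 5 in the same direction; PRM10 and YJL107C of these overlap by 4 bp on the same strand, and whether their rises of 2.28 and 2.29 share reads was not tested.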

How the data were processed

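Poly-A RNA was made into stranded libraries, per the labels' protocols. Per the submitters' processing notes, reads were handled with CASAVA 1.4, aligned with TopHat2 to sacCer3 and summarised with Cuffnorm. The authors deposited 1 table of FPKM for 6717 genes and 32 libraries; Cuffnorm's scaling and whether strand was used in counting: not given in the sources used here. Of the gene IDs 6025 matched the reference annotation, whose lengths are coding lengths, and 692 did not. An entry without a gene ID (at most 0.00057% of FPKM) was left out. Depth was estimated from low values, 91.6% of which came out as whole fragments (tolerance 0.1); no count test was run.

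Values were log2(FPKM + 1) of 6203 genes averaging 1 FPKM or more across the 32 libraries. Limma 3.58.1 (R 4.3.3, trended prior variance, Benjamini-Hochberg) was fitted to the 16 WT libraries as means of 8 times, or to all 32 for the strain difference; it was tested on simulated data. Replicate 1 is the fructose and replicate 2 the glucose course. Per the labels' protocols a course is 1 culture, so the course pairs 3 and 0 min. Deviations at these times correlated at 0.01 across genes. Over all pairs of WT times the correlation ran from -0.21 (30 and 0 min) to 0.42 (15 and 5 min). Serial samples were treated as independent, although deviations were correlated at some pairs of times. Equal FPKM sums and median-of-ratios scaling, pseudocounts of 0.1 and 5, other filters and left-out libraries were alternatives. The 21 lists, the comparison and the rule for named genes (TPS1, the 12 highest and 12 lowest called genes that changed at least 1.5-fold the same way in both courses, up to 3 called members a list, the 4 highest and 4 lowest of the other comparisons, and a set of fixed genes) were chosen with earlier results of these data known; other genes were named after their values had been seen. Python 3.11.15 with pandas 2.3.3, numpy 2.4.6 and scipy 1.17.1 made the tables and matplotlib 3.10.9 the figures.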

Additional observations from a re-analysis of the deposited data

Results flagged for a closer look

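The strain comparison of the 3 min change, tps1 minus WT, was called for 72 genes, and the named genes among them differed as follows (log2, limma, all 32 libraries). Among genes that rose in WT the difference was -5.37 for FMP48, -4.38 for MNC1, -3.82 for TPO2, -3.26 for YOR338W, -2.95 for DIA1, -2.71 for CIT2, -2.59 for YGR079W, -2.59 for TYE7, -2.52 for SCM4, -2.4 for YJL107C and -2.2 for PDE2. Among genes that fell in WT it was 4.49 for RGI1, 3.66 for TMA10, 2.6 for YER066C-A, 2.23 for YMR206W, 1.95 for MAL31, 1.75 for ISF1, 1.64 for HAP4, 1.49 for MAL33 and 1.38 for MAL11. YOR293C-A (-4.43) and YHR032C-A (11.18) are listed at 0 in a pair of WT libraries, so their values depend on the pseudocount and are no folds. Of 8 fits that each left out 1 library, MNC1, YER066C-A and HAP4 kept the call in 0, YOR338W, YHR032C-A, PDE2 and MAL33 in 1, MAL11 in 3 and MAL31 in 4; the other 13 named genes kept it in all 8. Equal FPKM sums, which moved the median gene of this comparison by more than 0.1 to -0.19, ended the calls of YER066C-A, HAP4, MAL31, ISF1, PDE2, MAL11 and MAL33 (adjusted p from 0.0555 to 0.245).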

How the results depend on the processing

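The count of 104 genes at 3 min was 282 with no fold limit, 28 with the 4 libraries alone and 18 with the 4 libraries and a replicate block, 17 of them among the 104. It ran from 71 to 109 when 1 of the 4 libraries was left out. The other alternatives gave 75 to 107; the replicate block gave 107, 102 of them among the 104. Of 67 named genes the block changed 2 calls, those of YRO2 and USV1, and it changed no named call between 5 and 3 min or in the strain difference. The 5 min count of 149 was 93 with a pseudocount of 5 and ran from 100 to 187 without 1 library. The strain difference count of 72 was 116 with the replicate block and ran from 29 to 53 without 1 library. Equal FPKM sums split the 97 calls at 3 min into 49 higher and 48 lower, and the 152 calls at 5 min into 31 higher and 121 lower, with a median gene of -0.12.

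Differences near 0 changed sign: FBP1 (-0.04) and PCK1 (-0.04) under equal FPKM sums, and, without 1 library, HXT1 (-0.27 to 0.24), HXT3 (-0.24 to 0.09), HXT4 (-0.44 to 0.02), FBP1 (-0.13 to 0.19), PCK1 (-0.18 to 0.23), MUP1 (-0.06 to 0.47) and STR3 (-0.03 to 0.86). With the 4 libraries alone 30 of the 67 named genes lost their call. Named genes with a mean under 10 FPKM had no value under that filter. The cause was not tested. Low levels limit SNF3, RGI2, HXT13 and similar genes.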
